A study of Homo sapiens with 9 samples.

Results

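The replication-dependent histone genes encode the linker histones H1-1 to H1-5 and the H2A, H2B, H3 and H4 core histones that package newly copied DNA. They were described in cells of DMS273, a line from human small cell lung cancer, in which either ATG7 and SQSTM1 together or ATG7 alone had been knocked out with CRISPRv2. The genes were chosen by symbol (H1-1 to H1-5 and all H2AC, H2BC, H3C and H4C genes), which gave 65 of the 67140 genes in the count table. The groups were ATG7/SQSTM1 KO cells, ATG7 KO cells and control cells that carried a scrambled guide and are labelled WT, with 3 libraries each. All cells were grown alike in RPMI 1640 with fetal bovine serum, and the labels name no drug treatment. Whether a knockout line is 1 clone or a pool, and whether the libraries of a group came from separate cultures, is not given in the sources used here. If the cultures were not separate, the p-values rest on a spread between libraries that may be technical only. ATG7 encodes an E1-like enzyme needed to build autophagosomes, and SQSTM1 encodes p62, a receptor that carries ubiquitylated cargo into them. The series concerns mechanisms of drug resistance in small cell lung cancer.

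Histone mRNAs of this kind are made mainly in S phase, when the NPAT protein promotes their transcription. They carry no poly(A) tail in their canonical form: the U7 small nuclear ribonucleoprotein directs a cut just after a conserved stem-loop, which the stem-loop binding protein SLBP holds through processing, export, translation and decay. Some of these genes also give longer, polyadenylated transcripts that run past the stem-loop. By protocol the libraries were made from total RNA by removing rRNA, a step that does not select for a poly(A) tail. How fully RNAs without a tail were recovered was not tested, and levels of some are given at the end. Counts per gene do not tell canonical and longer polyadenylated histone transcripts apart.

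The stem-loop was found in a GENCODE 29 transcript of 28 genes, in 6 forms of 16 bases, and 1 example of each of the 5 forms carried by a counted gene is shown because it marks the canonical 3′ end. The stem-loop is in capitals and the 7 bases on each side are in lower case. H2AC6 carries the form found in 15 genes, H2BC5 that of 4 genes, H4C8 that of 4 H4 genes, H4C9 that of 3 H4 genes, and H2AC11 a form of its own. The remaining form belonged to H3C6, which had no count.
H2AC6: acccaaaGGCTCTTTTCAGAGCCcccctac
H2BC5: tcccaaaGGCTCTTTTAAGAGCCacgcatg
H4C8: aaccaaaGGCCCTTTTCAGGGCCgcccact
H4C9: ctaaaaaGGCCCTTTTTAGGGCCcctaagc
H2AC11: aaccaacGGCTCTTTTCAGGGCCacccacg

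Of the 65 genes, 26 had enough counts to be tested (edgeR's filterByExpr with a minimum count of 10), 27 had counts but too few, and 12 had 0 counts in all 9 libraries. The 12 were H2AC1, H2AC14, H2AC15, H2BC1, H2BC10, H2BC14, H3C6, H3C8, H3C11, H4C6, H4C7 and H4C13, where a count of 0 allows a level of up to 0.0877 to 0.104 CPM (3 counts per library, counting error only). By class, 2 of 5 H1 genes, 6 of 16 H2A, 7 of 17 H2B, 3 of 13 H3 and 8 of 14 H4 genes were tested. The 26 tested genes held 98.1% of the counts of the whole group. Just inside the filter lay H2BC17 with 78 counts over the 9 libraries, and just outside it H2BC6 with 63.

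The 27 counted but untested genes had between 1 count (H2BC13 and H3C3) and 63 counts (H2BC6) in all. After H2BC6 came H2BC7 with 52, H2BC18 with 45, H2AC7 with 40 and H3C2 with 39 counts. Among the linker histones, H1-3 and H1-5 had 4 counts each and H1-1 had 2. The remaining untested genes were H2AC4, H2AC8, H2AC12, H2AC13, H2AC16, H2AC21, H2BC3, H2BC8, H2BC9, H3C1, H3C4, H3C7, H3C12, H3C13, H4C1, H4C2 and H4C4, with 2 to 36 counts each.

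Histone counts were a small part of each library and sat in few genes. They summed to 2467, 2024 and 2238 counts in ATG7/SQSTM1 KO cells, 3392, 3493 and 3813 in ATG7 KO cells, and 3531, 3041 and 3373 in control cells, in libraries of 28675576 to 34222098 counts. H2BC12 alone held 26.8% of the group's counts, and the first 6 genes by count (H2BC12, H1-2, H2AC6, H4C9, H2BC5 and H2BC21) held 66.2%. H2B genes held 44.7% of the counts, H2A genes 20.7%, H4 genes 19.8%, H1 genes 11.7% and H3 genes 3.19%.

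Counts were unevenly spread over the kinds of transcript model that GENCODE 29 lists. The 23 genes with a spliced model, or one running at least 100 bases past the stem-loop, had a median of 309 counts over the 9 libraries, and 15 of them were tested. The 7 genes whose models end near the stem-loop had a median of 36 counts, with 3 tested. The 33 genes whose models hold coding sequence only, or in which no stem-loop was found, had a median of 4 counts, with 8 tested, among them H2BC12 and H1-2. H3C2 and H3C3 had no entry in that release. In RefSeq, H2BC12 spans 8566 bases and so has a much longer model than the 381 bases of GENCODE 29. The 8 genes that span over 1000 bases in RefSeq had a median of 771.5 counts and 5 of them were tested, against 27 counts for the other 57, of which 21 were tested. The authors' annotation is not known here, so which of these models the counts rest on cannot be said.

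**Figure D1:**
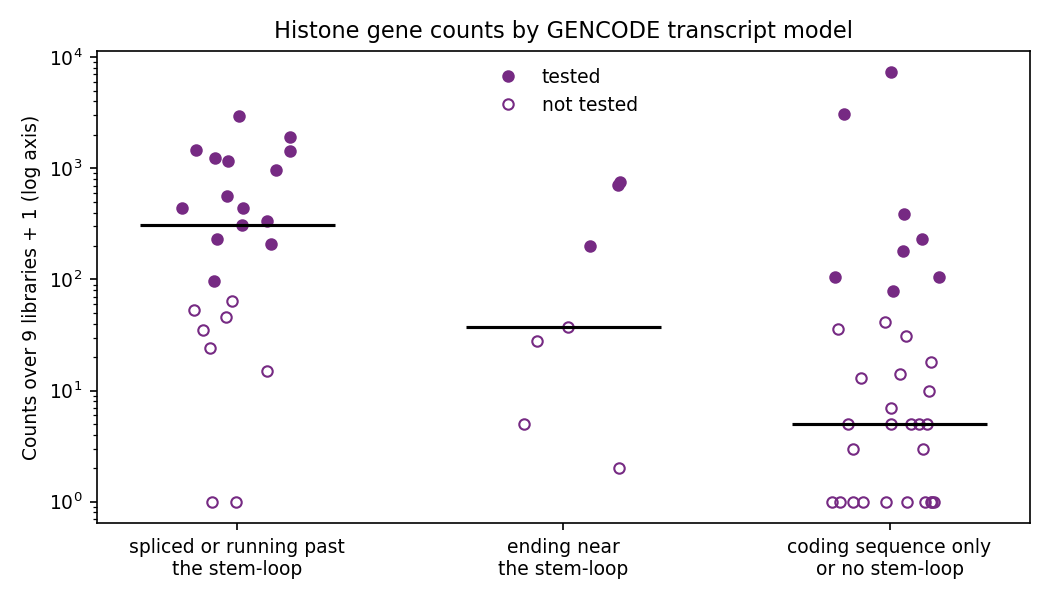
Counts of each histone gene summed over the 9 libraries, plus 1, on a log axis, by the kind of transcript model in GENCODE 29, with filled points for tested genes, open points for genes that were not tested and a bar at each median. Medians were 309, 36 and 4 counts from left to right, and the right-hand column also holds the gene with the most counts, H2BC12, at 7323.

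Of the genes found in GENCODE 29, 52 lie on chromosome 6 (chr6:25726132-27893843, GRCh38) with 21177 counts in all, and 11 on chromosome 1 (chr1:149782689-149887916) with 6155. Within these clusters 11 pairs of genes face away from each other with starts at most 500 bases apart, 10 of them an H2A with an H2B gene. The members of a pair often had unequal counts. H2BC12 had 7323 counts and its partner H2AC12 had 30, a ratio of 244. H2AC6 had 2929 and its partner H2BC4 had 309, a ratio of 9.48. H2BC21 and H2AC20 had 1419 and 391 counts, while H2BC11 and H2AC11 were close, at 437 and 567.

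The 250 bases before the start site are shown for H2BC12, H1-2 and H2AC6, the genes with the most counts of the H2B, H1 and H2A classes, from RefSeq on GRCh38.p14. They are written 5′ to 3′ on the gene's strand. Capitals mark the motifs that are spelled out with their counts after the sequences, on either strand, and matches that overlap run together. H2BC12 is on the minus strand at chr6:27146859-27147108, H1-2 on the minus strand at chr6:26056471-26056720 and H2AC6 on the plus strand at chr6:26123922-26124171. The H2AC6 window is nearly the same stretch as that of its divergent partner H2BC4, read on the other strand.
H2BC12: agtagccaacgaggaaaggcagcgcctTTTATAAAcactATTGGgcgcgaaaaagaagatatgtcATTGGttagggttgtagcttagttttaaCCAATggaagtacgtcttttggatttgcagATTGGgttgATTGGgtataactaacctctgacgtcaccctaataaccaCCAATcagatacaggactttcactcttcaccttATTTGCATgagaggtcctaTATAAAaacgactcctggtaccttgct
H1-2: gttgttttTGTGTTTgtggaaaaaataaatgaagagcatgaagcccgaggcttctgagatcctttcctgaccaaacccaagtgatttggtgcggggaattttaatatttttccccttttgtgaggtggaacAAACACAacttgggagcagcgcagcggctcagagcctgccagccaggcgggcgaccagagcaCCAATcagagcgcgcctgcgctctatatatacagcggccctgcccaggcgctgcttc
H2AC6: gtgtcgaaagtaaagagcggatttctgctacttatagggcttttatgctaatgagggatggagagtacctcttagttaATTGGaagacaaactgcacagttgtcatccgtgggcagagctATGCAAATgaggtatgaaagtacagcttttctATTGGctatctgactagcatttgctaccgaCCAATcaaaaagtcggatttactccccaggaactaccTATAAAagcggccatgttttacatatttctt

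A RefSeq promoter was found for 60 of the 65 genes. CCAAT occurred in 51 of these 60 (85.0%), against 33.0% of all 27305 promoters of the same length, but in 3 of 12 H4 promoters. TATAAA occurred in 68.3%, against 11.1% of all promoters. ATTTGCAT, the octamer known from histone H2B promoters, occurred in 82.4% of H2B and 73.3% of H2A promoters, in none of the 5 H1 or 12 H4 promoters, and in 1.66% of all promoters. AAACACA, known as the H1 box, occurred in 5 of 5 H1 promoters and in 4.95% of all promoters. These are matches of letters in the window, not measured binding.

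The targets of the knockouts were read first. SQSTM1 had 55.3, 48.8 and 51.6 CPM (counts scaled to library size, with TMM factors) in ATG7/SQSTM1 KO cells, 388, 396 and 389 in ATG7 KO cells, and 380, 375 and 373 in control cells. ATG7 had 11.2, 10.4 and 10.2 CPM in ATG7/SQSTM1 KO cells, 12, 9.99 and 13 in ATG7 KO cells, and 28.1, 26.4 and 26.8 in control cells. Of the defining markers of the cell type, NEUROD1 stood at 231 to 245 CPM in ATG7/SQSTM1 KO cells, 72.7 to 74.4 in ATG7 KO cells and 190 to 198 in control cells. The summed level of 8 neuroendocrine markers was 448 to 463, 155 to 157 and 431 to 441 CPM in the 3 groups in the same order. In ATG7/SQSTM1 KO against control, 3 of the 8 were called higher and 3 lower (edgeR, adjusted p under 0.05). Of all tested genes, 19% were called higher and 19.6% lower. The lower included NCAM1 (21.7 against 39 CPM) and INSM1 (73.2 against 89.2), and the higher included SYP (64.3 against 53). All 8 were called lower in ATG7 KO against control, where 28.3% of all tested genes were. Of 6 blood markers, CD3E and MS4A1 were at 0, and the sum was 2.57 to 3.26 CPM in ATG7/SQSTM1 KO, 7.72 to 9.25 in ATG7 KO and 4.85 to 5.69 in control cells. The sum of 6 fibroblast markers was 322 to 343, 652 to 691 and 178 to 192 CPM in these groups. COL1A1, COL3A1 and LUM followed the order of that sum, while DCN, PDGFRA and PDGFRB did not. In the same order of groups, DCN stood at 32.6, 21.2 and 7.5 CPM, PDGFRA at 5, 2.23 and 2.29, and PDGFRB at 0.614, 1.08 and 0.843. Of the blood markers, PTPRC and CD68 were highest in ATG7 KO cells. ITGAM was highest in control cells, at 2.79 CPM, against 1.44 in ATG7 KO and 0.857 in ATG7/SQSTM1 KO cells. The part of these markers in the histone values was not tested.

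Cells lacking both genes had less histone RNA than either other group. Over all 65 genes the summed level was 71.9, 69.5 and 71.3 CPM in ATG7/SQSTM1 KO cells, 116, 117 and 122 CPM in ATG7 KO cells, and 108, 105 and 108 CPM in control cells. The means were 70.9 ± 1.3, 118 ± 3.1 and 107 ± 1.8 CPM (SD, n = 3 each). The ATG7/SQSTM1 KO libraries lay below all others, and the ATG7 KO libraries lay above the control libraries without overlap. The ratio of means was 0.664 for ATG7/SQSTM1 KO over control, 1.11 for ATG7 KO over control and 0.6 for ATG7/SQSTM1 KO over ATG7 KO. In RNA from whole cultures, fewer cells with histone mRNA and less histone mRNA per cell cannot be told apart.

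The summed levels of the 5 classes were all low in ATG7/SQSTM1 KO cells and differed in ATG7 KO cells. These sums follow the genes with the most counts, and single genes of a class can differ from them. Summed H1 levels averaged 7.08 ± 0.55 CPM in ATG7/SQSTM1 KO, 16.7 ± 1.9 in ATG7 KO and 10.9 ± 1.1 in control cells (SD, n = 3 each), and no 2 groups overlapped. Most of the H1 sum was H1-2, with means of 6.71, 16.2 and 10.5 CPM in these groups. For H2A the means were 14.9 ± 1.1, 24.4 ± 0.79 and 22 ± 0.72 CPM in the same order, again without overlap. H2B genes averaged 31.3 ± 1.4 CPM in ATG7/SQSTM1 KO cells, 52.2 ± 2.5 in ATG7 KO cells and 48.6 ± 1.9 in control cells, where the last 2 groups overlapped. The H3 means were 2.34 ± 0.14, 3.43 ± 0.26 and 3.67 ± 0.55 CPM, and the H4 means 15.3 ± 0.44, 21.4 ± 1.1 and 21.7 ± 0.78 CPM, with ATG7 KO and control libraries overlapping in both classes. Ratios of ATG7/SQSTM1 KO over control ran from 0.638 (H3) to 0.703 (H4), and ratios of ATG7 KO over control from 0.935 (H3) to 1.53 (H1).

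**Figure D2:**
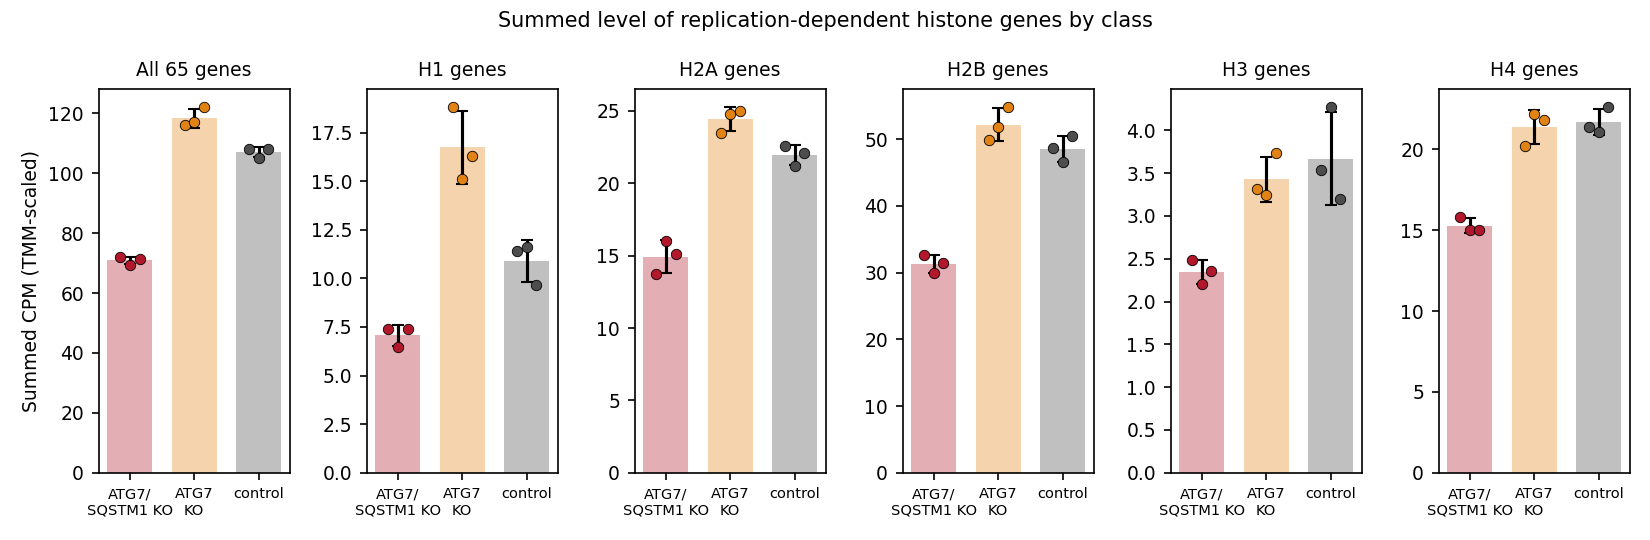
Summed CPM of all 65 histone genes and of each class in the 9 libraries (points), with bars at the group mean and error bars of 1 SD over 3 libraries. In each panel the 3 ATG7/SQSTM1 KO libraries sit below the 6 others, and the H1 panel has the highest ratio of ATG7 KO (mean 16.7) over control (mean 10.9), 1.53.

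In ATG7/SQSTM1 KO against control cells, 16 of the 26 tested genes were lower and 0 were higher (edgeR, adjusted p under 0.05), where 19.6% of all 18847 tested genes were lower and 19% higher. A further 2 genes, H2AC19 and H3C10, were below 0.05 before adjustment, which made 18 genes (69.2%), all lower, where 45.4% of all tested genes were below it in either direction, and DESeq2 also called 0 genes higher. The median log2 fold change was -0.52 over the 26 genes and -0.01 over all tested genes. The libraries of the groups did not overlap, with ATG7/SQSTM1 KO lower, for 18 of 26 genes, against 24.9% of all tested genes, and with ATG7/SQSTM1 KO higher for 0 genes, against 23.9%. The fold changes of the called genes ran from -0.35 to -1.14 on the log2 scale. DESeq2 did not call H2AC18, H2BC21 or H3C14 (adjusted p = 0.0514, 0.0536 and 0.073), nor did edgeR without the filter on low counts (0.0653, 0.0659 and 0.0574).

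H2BC12, the H2B gene with the most counts, had 19.4, 16.7 and 17.8 CPM in ATG7/SQSTM1 KO cells, 30.4, 32.4 and 34.1 in ATG7 KO cells, and 29.3, 27.4 and 29.7 in control cells. The 3 groups did not overlap, with ATG7/SQSTM1 KO lowest. Against control, its log2 fold change was -0.68 (SE 0.063, adjusted p = 2.42e-08) in ATG7/SQSTM1 KO cells. In RefSeq its span takes in H4C9 whole, on the opposite strand.

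H1-2, a linker histone that binds the DNA where it enters and leaves the nucleosome, had 7, 5.9 and 7.23 CPM in ATG7/SQSTM1 KO cells, 18.5, 14.7 and 15.6 in ATG7 KO cells, and 11.2, 11 and 9.32 in control cells. No 2 groups overlapped. The log2 fold change against control was -0.64 (SE 0.11, adjusted p = 5.7e-05) in ATG7/SQSTM1 KO cells. H1-4, the other tested linker histone, had 3 to 18 counts per library and was not called (-0.03, SE 0.51).

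Among H2A genes, H2AC6 had 6.3, 8.31 and 7.65 CPM in ATG7/SQSTM1 KO cells, 11.7, 13.4 and 13 in ATG7 KO cells, and 12, 11.3 and 11.5 in control cells. The ATG7/SQSTM1 KO libraries were the low ones and the other groups overlapped. It fell by 0.65 on the log2 scale against control (SE 0.096, adjusted p = 1.38e-05). H2AC11 had 1.55, 1.61 and 1.34 CPM in ATG7/SQSTM1 KO cells, 2.35, 1.98 and 1.91 in ATG7 KO cells, and 3.02, 2.41 and 2.18 in control cells, a fall of 0.76 against control (adjusted p = 0.00306). Its ATG7/SQSTM1 KO libraries were below the others, which overlapped.

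H2AC18 and H2AC19 have the same 393 coding bases, so that reads may be split between them, and their counts were nearly equal in each library (ratio 1.0 to 1.14). H2AC18 had 2.13, 2.06 and 2.13 CPM in ATG7/SQSTM1 KO cells, 3.17, 2.95 and 3.35 in ATG7 KO cells, and 2.99, 2.58 and 3.11 in control cells. H2AC19 had 2.13, 2.06 and 2.04 CPM in ATG7/SQSTM1 KO cells, 3, 2.75 and 3.13 in ATG7 KO cells, and 2.65, 2.27 and 2.98 in control cells. In both, the ATG7/SQSTM1 KO libraries were lowest and the other 2 groups overlapped. Against control, the adjusted p was 0.0251 for H2AC18 and 0.108 for H2AC19. With both copies replaced by the mean of their counts it was 0.0592, which is not a test of their summed reads. The H2AC18 call was lost without ATG7/SQSTM1 KO replicate 1, 2 or 3 (adjusted p = 0.0552, 0.0633 and 0.0533) and without control replicate 1 or 3 (0.0795 and 0.0907).

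All 7 tested H2B genes had values below control in ATG7/SQSTM1 KO cells and 6 were called, where 19.6% of all tested genes were called lower. H2BC5 had 3.91, 3.4 and 4.01 CPM in ATG7/SQSTM1 KO cells, 6.14, 5.8 and 6.16 in ATG7 KO cells, and 6.01, 5.65 and 6.69 in control cells. The ATG7/SQSTM1 KO libraries stood apart, at a log2 fold change of -0.70 against control (SE 0.12, adjusted p = 7.33e-05). H2BC4, the partner of H2AC6, had 0.496, 0.618 and 0.542 CPM in ATG7/SQSTM1 KO cells, 1.81, 1.24 and 1.72 in ATG7 KO cells, and 1.37, 1.21 and 1.06 in control cells. Its log2 fold change of -1.14 (SE 0.26, adjusted p = 0.00146) was the largest fall among the called genes, on 17 to 18 counts per ATG7/SQSTM1 KO library. H2BC11 had 0.991, 0.652 and 1.21 CPM in ATG7/SQSTM1 KO cells, 1.74, 1.74 and 1.88 in ATG7 KO cells, and 1.77, 1.72 and 2.43 in control cells. It was lower by a log2 fold change of -1.05 (SE 0.24, adjusted p = 0.00128), again with no overlap between ATG7/SQSTM1 KO and the rest.

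H2BC21 had 4.55, 4.32 and 3.7 CPM in ATG7/SQSTM1 KO cells, 5.77, 5.87 and 5.84 in ATG7 KO cells, and 5, 6.13 and 4.87 in control cells. Its log2 fold change against control was -0.35 (adjusted p = 0.0351), and the call was lost without ATG7/SQSTM1 KO replicate 2 or 3 (adjusted p = 0.0608 and 0.157) or control replicate 2 (0.21), and with the 6 libraries compared alone (0.0566). H2BC15 had 2.59, 3.05 and 3.12 CPM in ATG7/SQSTM1 KO cells, 2.83, 3.25 and 3.83 in ATG7 KO cells, and 4.18, 3.62 and 4.74 in control cells. The ATG7/SQSTM1 KO and control libraries of H2BC15 did not overlap (-0.52, adjusted p = 0.0122), and the call was lost without ATG7/SQSTM1 KO replicate 1 (0.06) or control replicate 3 (0.0751). H2BC15 overlaps H2AC15 on the opposite strand and H2AC16 on its own in GENCODE 29, so its counts are uncertain. H2BC17, at 4 to 12 counts per library, was not called.

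The H3 genes had few counts. H3C10 had 0.816, 1.03 and 0.892 CPM in ATG7/SQSTM1 KO cells, 1.64, 1.07 and 1.47 in ATG7 KO cells, and 1.37, 1.34 and 1.18 in control cells, and was not called against control (-0.51, adjusted p = 0.1). H3C14 and H3C15 share all 411 coding bases and overlap H4C14 and H4C15 on the opposite strand by 230 bases each. H3C15 had 0.641, 0.515 and 0.542 CPM in ATG7/SQSTM1 KO cells, 0.614, 0.805 and 0.798 in ATG7 KO cells, and 0.977, 1.55 and 0.993 in control cells. The control libraries were the high ones, with log2 fold changes against control in ATG7/SQSTM1 KO cells of -1.04 for H3C15 (adjusted p = 0.00674) and -0.81 for H3C14 (adjusted p = 0.0299). H3C14 had 0.612, 0.481 and 0.574 CPM in ATG7/SQSTM1 KO cells, 0.58, 0.738 and 0.734 in ATG7 KO cells, and 0.885, 1.21 and 0.864 in control cells. Without control replicate 2 neither was called (0.0582 and 0.138), and H3C14 was not called without ATG7/SQSTM1 KO replicate 2 or 3 (0.0949 and 0.0618).

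Of the 8 tested H4 genes, 4 were called lower in ATG7/SQSTM1 KO against control, where 19.6% of all tested genes were. H4C9 had 5.6, 4.43 and 4.56 CPM in ATG7/SQSTM1 KO cells, 8.02, 8.22 and 8.71 in ATG7 KO cells, and 6.81, 7.37 and 7.78 in control cells. The 3 groups did not overlap, and the log2 fold change against control was -0.59 (SE 0.11, adjusted p = 0.000239). H4C8 had 0.991, 0.824 and 0.988 CPM in ATG7/SQSTM1 KO cells, 1.91, 1.91 and 2.3 in ATG7 KO cells, and 1.8, 1.45 and 2.05 in control cells. It was lower by a log2 fold change of -0.91 (SE 0.22, adjusted p = 0.00198), with the ATG7/SQSTM1 KO libraries below all others.

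H4C14 and H4C15, which share all 312 coding bases, were called lower in both knockouts. H4C15 had 3.53, 4.02 and 3.66 CPM in ATG7/SQSTM1 KO cells, 3.96, 4.66 and 3.99 in ATG7 KO cells, and 5.8, 5.03 and 5.28 in control cells. H4C14 had 3.18, 3.67 and 3.38 CPM in ATG7/SQSTM1 KO cells, 3.65, 4.46 and 3.67 in ATG7 KO cells, and 5.46, 4.72 and 5.06 in control cells. The knockouts overlapped each other and lay below control, at log2 fold changes against control of -0.53 and -0.58 in ATG7/SQSTM1 KO cells (adjusted p = 0.00233 and 0.00164). H4C11 and H4C12, also identical in coding sequence, H4C3 and H4C5 were not called in ATG7/SQSTM1 KO against control. H4C3 had the highest value of the 26 genes there, 0.67, on 13 to 16 counts in ATG7/SQSTM1 KO and 5 to 14 in control libraries.

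**Figure D3:**
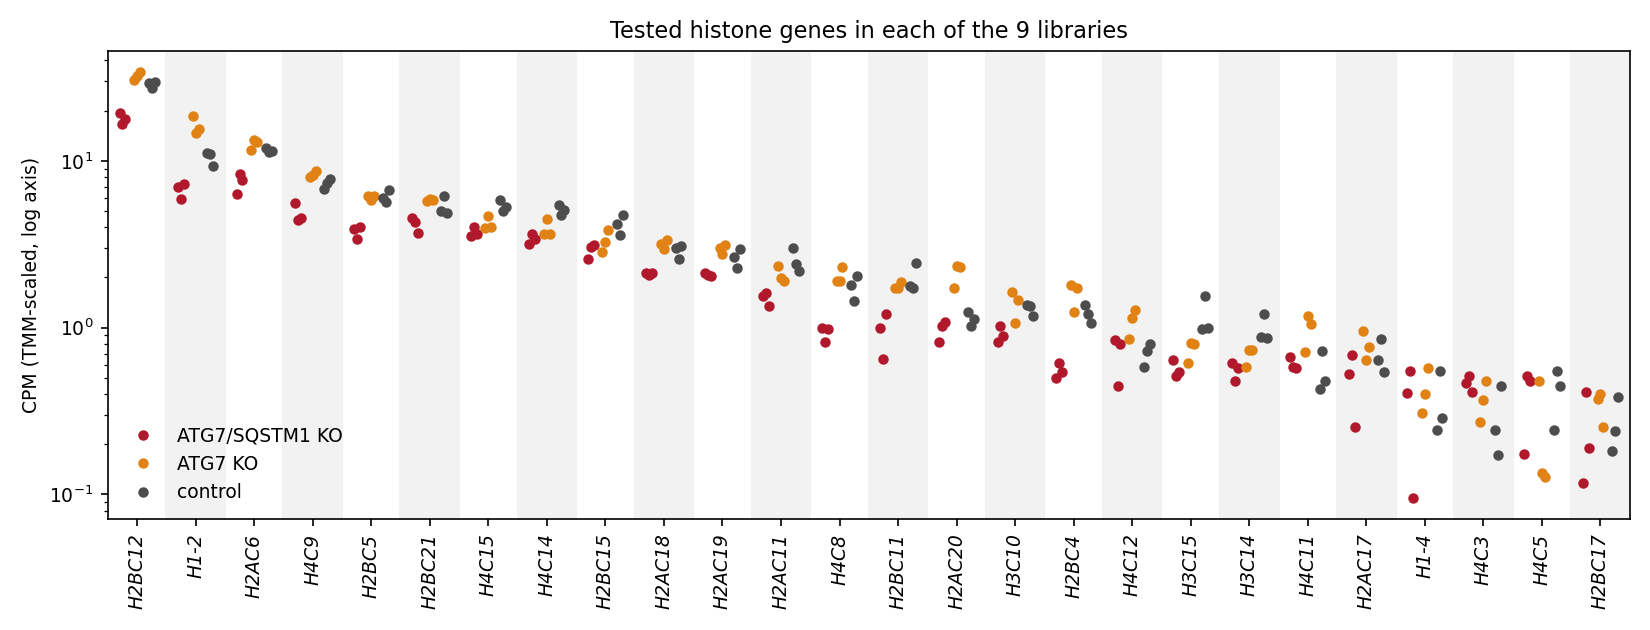
CPM of the 26 tested histone genes in each of the 9 libraries on a log axis, ordered by total count, with ATG7/SQSTM1 KO, ATG7 KO and control points from left to right for each gene. In 18 genes the ATG7/SQSTM1 KO libraries lie below all control libraries, and the spread widens toward the genes with few counts on the right.

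ATG7 KO cells differed less from control cells at these genes. Of the 26 tested, 4 were higher and 2 lower (edgeR), where 28.4% of all tested genes were higher and 28.3% lower. The median log2 fold change was 0.15 over the histone genes and -0.02 over all tested genes. Groups did not overlap for 5 genes with ATG7 KO higher and 4 with ATG7 KO lower, against 30.8% and 31.6% of all tested genes.

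Of the 4 genes called higher, H2AC20 and H1-2 kept their calls in each of the 14 alternatives run. H2AC20, the divergent partner of H2BC21, had 0.816, 1.03 and 1.08 CPM in ATG7/SQSTM1 KO cells, 1.74, 2.35 and 2.3 in ATG7 KO cells, and 1.25, 1.03 and 1.12 in control cells. Its ATG7 KO libraries lay above the others, with a log2 fold change of 0.90 against control (SE 0.22, adjusted p = 0.00128). H1-2 rose by 0.63 in ATG7 KO against control (SE 0.1, adjusted p = 1.85e-05).

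H2BC12 was higher by 0.16 in ATG7 KO against control (SE 0.061, adjusted p = 0.0249), a call lost without ATG7 KO replicate 3 (0.0978) or control replicate 2 (0.109) and with library totals (0.0886). H4C11 had 0.67, 0.584 and 0.574 CPM in ATG7/SQSTM1 KO cells, 0.716, 1.17 and 1.05 in ATG7 KO cells, and 0.427, 0.724 and 0.48 in control cells. It was higher by 0.86 in ATG7 KO against control (SE 0.31, adjusted p = 0.0233) although these 2 groups overlapped. The call was lost without ATG7 KO replicate 2 or 3 (0.0986 and 0.0619) or control replicate 1 or 3 (0.0912 and 0.074), and with DESeq2 (0.0539). H4C12, with the same coding sequence, was not called (0.64, adjusted p = 0.0735).

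H4C14 and H4C15 were the 2 genes called lower in ATG7 KO against control, by -0.37 (adjusted p = 0.0219) and -0.35 (adjusted p = 0.0217). Both calls were lost without ATG7 KO replicate 1 (0.091 and 0.0875), ATG7 KO replicate 3 (0.0872 and 0.0819) or control replicate 1 (0.105 and 0.112), and without the filter on low counts (0.0523 and 0.0543).

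Between the knockouts, 14 of the 26 tested genes were lower in ATG7/SQSTM1 KO than in ATG7 KO cells and 0 were higher (edgeR and DESeq2 alike for the higher genes), where 29.9% of all tested genes were lower, 30.5% higher and 60.5% changed either way. At an unadjusted p under 0.05 there were 16 genes (61.5%), all lower, where 63.9% of all tested genes were under it in either direction. The median log2 fold change was -0.60, against 0.02 over all tested genes, and the ATG7/SQSTM1 KO libraries lay wholly below the ATG7 KO libraries for 16 genes, against 32.4% of all tested genes. This comparison uses the same ATG7/SQSTM1 KO libraries as the one against control.

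H2BC4 had the largest called difference between the knockouts, -1.53 (SE 0.26, adjusted p = 2.47e-05), followed by H1-2 at -1.27 (SE 0.1, adjusted p = 1.36e-09). H2AC20 and H4C8 came next at -1.13 and -1.12 (adjusted p = 0.000149 and 0.000123). H2BC12 differed by -0.84 (SE 0.063, adjusted p = 1.65e-10), H2AC6 by -0.78 and H4C9 by -0.77.

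H2AC19, H2AC20 and H3C10 were called against ATG7 KO but not against control. H2BC15, H3C14, H3C15, H4C14 and H4C15 were called against control but not against ATG7 KO. Whether the effects on a gene differ between these comparisons was not tested. The H3C10 call (-0.61, adjusted p = 0.032) was lost without ATG7 KO replicate 1 or 3 (0.134 and 0.0786) or ATG7/SQSTM1 KO replicate 1 or 3 (0.0999 and 0.07). The H2AC11 call (-0.47, adjusted p = 0.0404) was lost without ATG7 KO replicate 1 or 2 (0.148 and 0.0511) or ATG7/SQSTM1 KO replicate 1 or 3 (0.066 and 0.125). Neither was called with DESeq2 (0.0739 for H3C10 and 0.0825 for H2AC11) or without the filter on low counts (0.0581 and 0.0733), nor was H2AC11 with library totals (0.058).

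**Figure D4:**
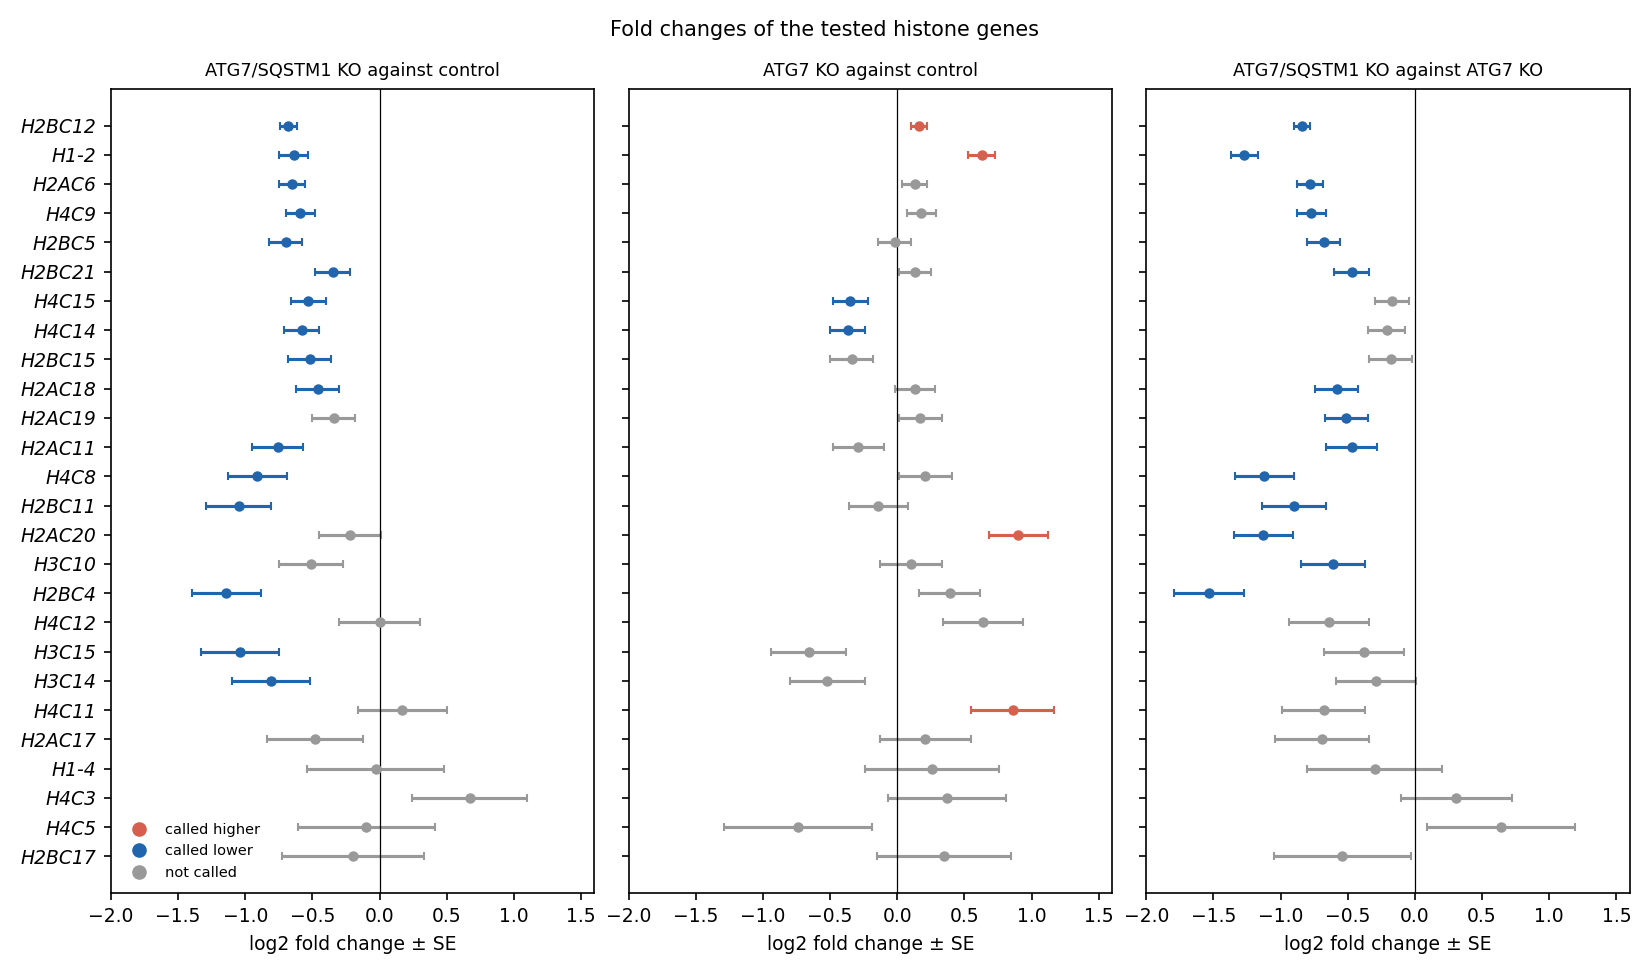
Log2 fold change with its SE for the 26 tested histone genes in ATG7/SQSTM1 KO against control (left), in ATG7 KO against control (middle) and between the knockouts (right), blue where called lower, red where called higher and grey where not called. Blue points number 16 on the left and 14 on the right, and the middle panel has 4 red and 2 blue points.

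Genes for making and handling histone mRNA had smaller median changes than the histone genes, a difference that was not tested. Of 19 such genes, 1 was higher and 7 were lower in ATG7/SQSTM1 KO against control, with a median log2 fold change of -0.02. Among the lower were SRRT, a partner of the cap-binding complex, at 134 CPM in ATG7/SQSTM1 KO and 169 in control cells (-0.33, adjusted p = 2.19e-08), and CPSF2, a subunit of the cleavage complex (-0.25, adjusted p = 4.76e-07). In ATG7 KO against control, 10 were higher and 5 lower, with ERI1, the exonuclease that trims histone mRNA 3′ ends, at 63.3 CPM in ATG7 KO and 41.2 in control cells (0.62, adjusted p = 4.56e-11). Between the knockouts, 2 were higher and 12 lower in ATG7/SQSTM1 KO. Of all tested genes, 38.6%, 56.7% and 60.5% were called either way in these comparisons, in the same order.

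SLBP had 108, 117 and 111 CPM in ATG7/SQSTM1 KO cells, 136, 135 and 138 in ATG7 KO cells, and 118, 114 and 117 in control cells. It was higher in ATG7 KO than in control (0.23, adjusted p = 3.99e-06) and lower in ATG7/SQSTM1 KO than in ATG7 KO (-0.28, adjusted p = 1.58e-07). Against control, SLBP was not called in ATG7/SQSTM1 KO cells (-0.06, edgeR adjusted p = 0.199). NPAT averaged 44.8 CPM in ATG7/SQSTM1 KO, 42.9 in ATG7 KO and 51.5 in control cells. It was called lower than control in both knockouts (-0.2 and -0.26, edgeR adjusted p = 0.0064 and 0.00048) and was not called between them. The part of SLBP and NPAT in the histone values was not tested.

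The replication-independent variants, histones made outside S phase and mostly from polyadenylated mRNA, went both ways. Of 10 tested, 4 were higher and 2 lower in ATG7/SQSTM1 KO against control, 7 higher and 2 lower in ATG7 KO against control, and 2 higher and 5 lower between the knockouts. The shares of all tested genes called either way were 38.6%, 56.7% and 60.5%, in the same order. H3-3A, a gene of the replacement H3 variant, averaged 561 CPM in ATG7/SQSTM1 KO and 496 CPM in control cells (0.18, edgeR adjusted p = 1.75e-06), and at 444 CPM in ATG7 KO cells it was lower than in control (-0.16, adjusted p = 2.43e-06). Per kilobase of GENCODE 29 exon, levels over all libraries were 204 CPM for H2AZ1 and 159 for H3-3A, and 69.3 for H2BC12, 17.4 for H1-2 and 6.35 for H2AC6. The H2BC12 level rests on its short model and would be lower on a longer one.

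Among 26 genes of G1/S and DNA replication, 2 were higher and 9 lower in ATG7/SQSTM1 KO against control, with a median of -0.06. The higher ones were POLA1 and MCM6 (0.37 and 0.27), and CCNE2 was among the lower (-0.51). In ATG7 KO against control 17 were higher and 3 lower. Among the higher were RRM2, a subunit of ribonucleotide reductase, at 0.60, and TK1, thymidine kinase, at 0.92, and among the lower CCNE2 at -0.32. Between the knockouts 4 were higher and 17 lower, with a median of -0.21 and with RRM2 at -0.84 and TK1 at -0.95. POLA1 and MCM6 were among the higher, at 0.18 and 0.19. Of 21 histone chaperones, 5 were higher and 11 lower in ATG7/SQSTM1 KO against control, 13 higher and 4 lower in ATG7 KO against control, and 5 higher and 14 lower between the knockouts. ASF1B, a chaperone of newly made H3 and H4, was lower by -0.63 between the knockouts and higher by 0.44 in ATG7 KO against control. RBBP7 and ATRX were higher by 0.51 and 0.35 in ATG7/SQSTM1 KO against control. Between the knockouts they were higher by 0.19 and 0.18. Beside the counts of both lists stand 38.6%, 56.7% and 60.5% of all tested genes called either way in the 3 comparisons, in the same order. The part of the listed genes in the histone values was not tested.

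**Figure D5:**
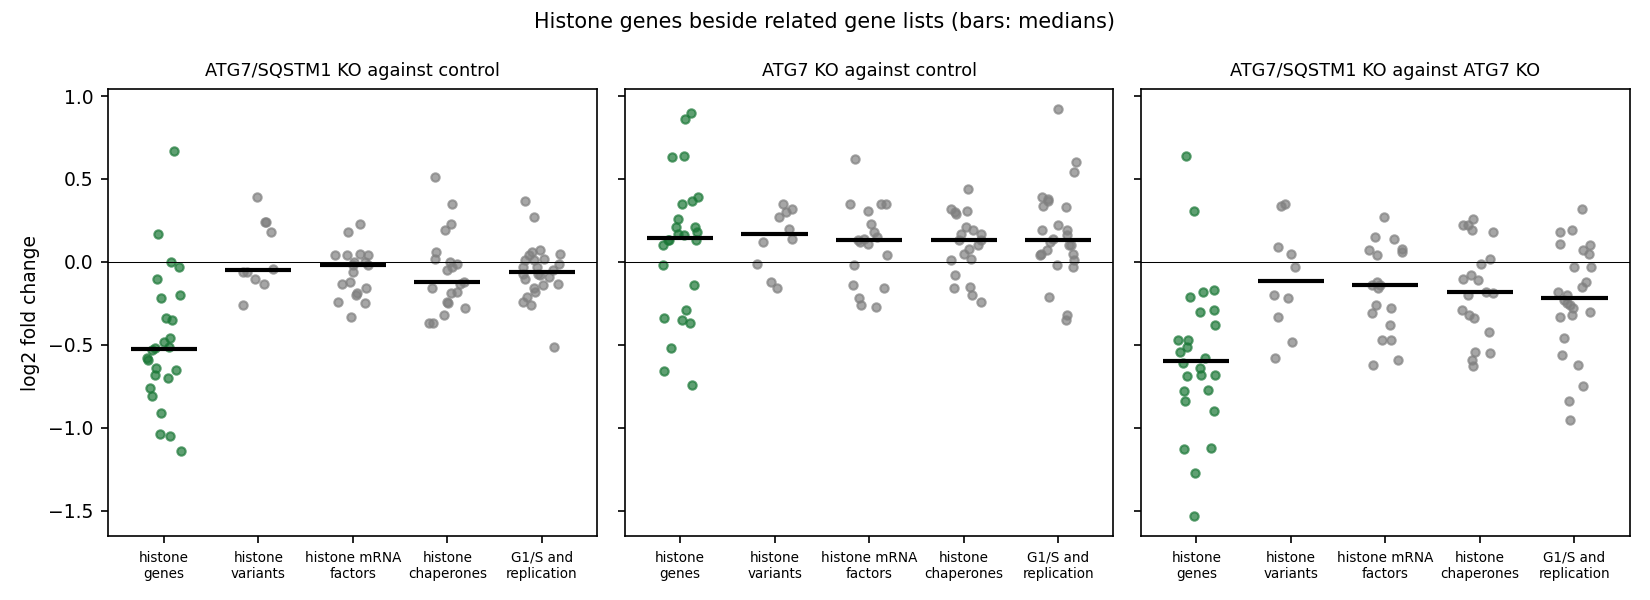
Log2 fold changes of the tested histone genes and of 4 related gene lists in the 3 comparisons, with 1 point per gene and a bar at each median. In ATG7/SQSTM1 KO against control the histone median is -0.52 while that of the replication genes is -0.06, and in ATG7 KO against control the histone median is 0.15.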

How the data were processed

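RNA of 9 DMS273 libraries was extracted as total RNA, depleted of rRNA and made into dUTP strand-marked libraries with 12 PCR cycles, per the labels' protocols. Per the submitters' processing notes, HISAT2 and hg38 were used for alignment. How reads were then counted (program, strand setting, annotation) is not given in the sources used here. What the authors deposited are raw counts, whole numbers for each gene and library. No cell holds 0, and 362598 missing cells were read as 0. A further column that belongs to no library (1, all 0) was left out.

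The test was edgeR 4.0.16 in R 4.3.3 (filterByExpr minimum count 10, TMM factors 0.977 to 1.01, robust quasi-likelihood fit of all 9 libraries, 6 residual degrees of freedom), with Benjamini-Hochberg adjustment over 18847 genes and a threshold of 0.05. The common biological coefficient of variation was 6.39%. Alternatives were DESeq2 1.42.0, other scalings and filters, a replicate block, the 6 libraries compared alone, leaving out each library, and, added after the data were seen, near-identical copies merged. The merged pairs were H2AC18 with H2AC19, H3C14 with H3C15 and H4C14 with H4C15. Each became a single row with the mean, not the sum, of both counts. H4C11 and H4C12 were not merged. On simulated counts for ATG7/SQSTM1 KO against control (18501 genes), 21, 25, 37 and 47 of 50 genes changed 1.25, 1.5, 2 and 4-fold were recovered, with 8 false calls. For ATG7 KO against control these were 22, 21, 36 and 48 with 6 false calls, and between the knockouts 22, 24, 37 and 47 with 14 false calls (18506 genes each). Far fewer genes were changed in the simulations than were called in the data, and they were drawn without regard to count. These rates therefore need not hold for the histone genes. Within groups, libraries differed by more than sampling noise (chi-square per degree of freedom 4.45 to 6.99).

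The genes and lists were chosen with earlier results of these data known. Named are ATG7, SQSTM1, the tested histone genes and, of each list, up to 4 called genes per comparison with the smallest p. Some genes this rule names are left out here. H2AZ1, NPAT, CD3E, MS4A1, PDGFRA and PDGFRB fall outside it and were picked with their values in view. Coordinates and models are from GENCODE 29, with 63 of 65 genes matched, and promoters from RefSeq (GRCh38.p14).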

Additional observations from a re-analysis of the deposited data

How the results depend on the processing

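None of the 36 called fold changes of histone genes changed sign under the alternatives run; of the 42 not called, 7 did (H1-4, H2BC5, H2BC11, H2BC17, H3C10 and H4C5 in at least 1 comparison), and H4C12, at 0 in ATG7/SQSTM1 KO against control, took both signs. The number lower in ATG7/SQSTM1 KO against control ran from 13 to 16. It was 13 to 15 when 1 library was left out, 13 with DESeq2, and 13 of 23 rows with near-identical copies merged. Between the knockouts it ran from 12 to 16. In ATG7 KO against control, 3 to 6 genes were higher. The 2 lower genes became 4 with library totals (beside 3 higher), 0 without the low-count filter and 1 to 3 when 1 library was left out. With copies merged there was 1, because H4C14 and H4C15 then formed a single row, which was still called. Without the filter 53 histone genes were kept, and 17 with a minimum mean of 1 CPM, in place of 26. Summed class levels moved by less than the spread between replicates under the scalings and left-out libraries tried. Fold changes of single genes in the alternatives stayed on the same side of the threshold 993 times, lost it 51 times and gained it 11 times; the cause was not tested. Replicate numbers did not pair the libraries (same-number correlations -0.0613 to 0.0234, 0 of 9 over 0.1), and with the replicate block the counts were 16 lower in ATG7/SQSTM1 KO against control, 4 higher and 2 lower in ATG7 KO against control, and 14 lower between the knockouts, as without it. The 39 genes not tested had too few counts for a comparison, and why was not tested.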

Other observations

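The following genes were chosen after their values were seen. The histone pseudogenes H2BC20P and H2BC19P had levels comparable with those of the higher histone genes and had their lowest means in ATG7 KO cells. H2BC20P had 18, 16.6 and 18 CPM in ATG7/SQSTM1 KO cells, 14.5, 13.5 and 13.3 in ATG7 KO cells, and 24, 20.4 and 23.2 in control cells. Its 3 groups did not overlap, with log2 fold changes of -0.36 in ATG7/SQSTM1 KO against control (edgeR, adjusted p = 0.000296) and -0.71 in ATG7 KO against control (adjusted p = 2.37e-08). H2BC19P averaged 5.92 ± 0.16 CPM in ATG7/SQSTM1 KO, 4.97 ± 0.93 in ATG7 KO and 8.75 ± 1.3 in control cells (SD, n = 3 each), and was called lower in both knockouts (-0.56 and -0.81). No H2BC gene among the 7 tested was called lower in ATG7 KO against control, where 28.3% of all tested genes were. H2BC15 was at -0.34 there (edgeR, adjusted p = 0.072). It was called lower with library totals (0.0444) and without ATG7 KO replicate 3 (0.0346) or control replicate 2 (0.04). How far the reads of these pseudogenes and of H2B genes were told apart was not tested. H2AW, an H2A gene outside the choice by symbol, averaged 10.3 CPM in ATG7/SQSTM1 KO, 10.4 in ATG7 KO and 11.6 in control cells. Its log2 fold changes against control were -0.17 in ATG7/SQSTM1 KO and -0.16 in ATG7 KO cells (edgeR, adjusted p = 0.148 and 0.137). Between the knockouts it was -0.01 (adjusted p = 0.939), so H2AW was not called in any comparison.

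Levels of other RNAs without a poly(A) tail varied widely, and the small ones looked at were all low. Averaged over the 9 libraries, RN7SK had 2.67 CPM, RPPH1 2.02, RMRP 0.666, TERC 0.179 and RNU7-1, the U7 RNA, 0.0147. Why they were low was not tested. RN7SK, an abundant small nuclear RNA, averaged 2.38 ± 0.69 CPM in ATG7/SQSTM1 KO, 2.57 ± 0.37 in ATG7 KO and 3.06 ± 1 in control cells (SD, n = 3 each) and was not called. RPPH1, the RNA of RNase P, had 1.05, 0.652 and 1.21 CPM in ATG7/SQSTM1 KO cells, 2.7, 2.45 and 2.2 in ATG7 KO cells, and 2.62, 3.2 and 2.05 in control cells. It was lower in ATG7/SQSTM1 KO against control (-1.42, adjusted p = 3.69e-05) and was not called in ATG7 KO against control (-0.10, adjusted p = 0.714). MALAT1, a nuclear RNA whose mature end carries no poly(A) tail, was plentiful at 294 ± 4.8, 190 ± 22 and 248 ± 27 CPM in ATG7/SQSTM1 KO, ATG7 KO and control cells (SD, n = 3 each).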
